A study of Mus musculus with 6 samples.

Results

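Neurotrophins, the glial cell line-derived neurotrophic factor GDNF and their receptors were followed in striatal messenger RNA of 12-month-old mice. The set comprised 7 genes: the ligands Bdnf, Ntf3 and Gdnf and the receptors Ntrk2, Ntrk3, Ngfr and Gfra1. Every probe set whose platform annotation gives exactly 1 gene symbol from that set was taken, which yielded 6 probe sets for 5 genes, of 12422 probe sets and 8251 genes in all. Ntf3 and Ngfr had no such probe set and were not measured.

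The comparison was between 3 Hdh4/Q80 mice and 3 wild-type littermates, with 1 array per mouse. All 6 animals were female C57BL/6 mice of the same age by the labels, which name the mutants as transgenic. Hdh4/Q80 mice carry a lengthened CAG repeat in the mouse huntingtin gene and are used as a model of Huntington's disease, in which the striatum degenerates early. The labels do not say whether the mutants carried 1 or 2 altered alleles. The question posed by the design is which striatal transcripts differ in level between mutants and littermates.

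Neurotrophins are secreted as precursors and act through Trk receptor tyrosine kinases, with BDNF binding TrkB (Ntrk2) and neurotrophin-3 binding TrkC (Ntrk3), and through the shared low-affinity receptor encoded by Ngfr. GDNF binds the membrane-anchored coreceptor GFRα1 (Gfra1), and this complex signals through the Ret kinase or the adhesion molecule NCAM. The adult striatum makes little Bdnf messenger RNA itself and receives most of its BDNF protein along axons from the cortex, where huntingtin has been reported to affect Bdnf transcription and transport.

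Sequence upstream of the annotated transcript starts was available for 6 of the 7 genes from RefSeq (build GRCm38.p6), in 14 windows of 250 bases, 7 of them for Bdnf alone. The windows were searched on both strands for TGACGTCA, the full binding motif of the activity-regulated factor CREB, and for its core CGTCA, which is part of the full motif. The core was found in 2 of the 14 windows (14.3%), against 17.8% of all 32851 windows of the same length, and the full motif in 0 of 14, against 1.55% of all windows. These are letter matches only. The windows with a match, 1 of Bdnf and 1 of Gdnf, are shown because Bdnf is the most variable gene of the set and because CREB-regulated genes are described further on. Capitals mark the core.
Bdnf, chr2:109692186-109692435, plus strand, core starting 35 bases before the transcript start: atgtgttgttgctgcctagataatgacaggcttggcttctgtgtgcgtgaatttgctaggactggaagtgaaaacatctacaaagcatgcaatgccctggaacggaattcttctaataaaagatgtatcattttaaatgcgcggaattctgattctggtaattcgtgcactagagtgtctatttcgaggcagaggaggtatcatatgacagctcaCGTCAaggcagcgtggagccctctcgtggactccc
Gdnf, chr15:7809798-7810047, plus strand, core starting 50 bases before the transcript start: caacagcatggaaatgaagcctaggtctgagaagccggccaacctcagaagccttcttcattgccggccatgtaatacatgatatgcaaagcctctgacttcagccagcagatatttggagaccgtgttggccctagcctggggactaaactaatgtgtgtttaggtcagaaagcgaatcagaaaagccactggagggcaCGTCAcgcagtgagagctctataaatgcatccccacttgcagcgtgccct

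Values are log2 expression per probe set, so a difference of 1 is a doubling on the array scale. Array medians lay between 7.10 and 7.13 and lower quartiles between 5.79 and 5.86. The labelled tissue was checked against 6 measured striatal projection neuron markers of 11 listed. The enkephalin precursor Penk lay between 12.92 and 13.14 and the dopamine receptor Drd2 between 9.52 and 9.90 on all arrays. Ptpn5, Tac1 and Pdyn also lay above the median of every array. Rgs9, in contrast, was dim and lay below the lower quartile of every array (mean 5.68 in Hdh4/Q80 and 5.58 in wild-type mice). Hdh4/Q80 replicate 8 stood apart, with a mean correlation of 0.992 with the other arrays, against 0.995 to 0.997 for the others. Differences of the neurotrophin and GDNF probe sets, and medians of some pathway lists, are therefore also given without replicate 8. Those of the cell type markers are not. No detection calls were used here, and the number of arrays limits the precision.

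No member of the set was called different in Hdh4/Q80 mice. In limma's moderated test, 0 of the 6 passed an adjusted p of 0.05, against a background of 0 of 12422 probe sets (0%), and 0 of the 6 had an unadjusted p under 0.05, against 5.1% of all probe sets. The 3 mutants lay entirely to one side of the 3 wild types for 0 of the 6, against 11.7% of all probe sets. The difference was below 0 for 4 of the 6, against 51.1% of all probe sets, with a median of -0.07 for the 6 and -0.0027 for all. The 95% interval excluded a 1.5-fold change in either direction for 4 of the 6, against 98.6% of all probe sets; the exceptions were Bdnf and Ntrk2, which also had the widest spread of the 6 between mice of one group.

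**Figure D1:**
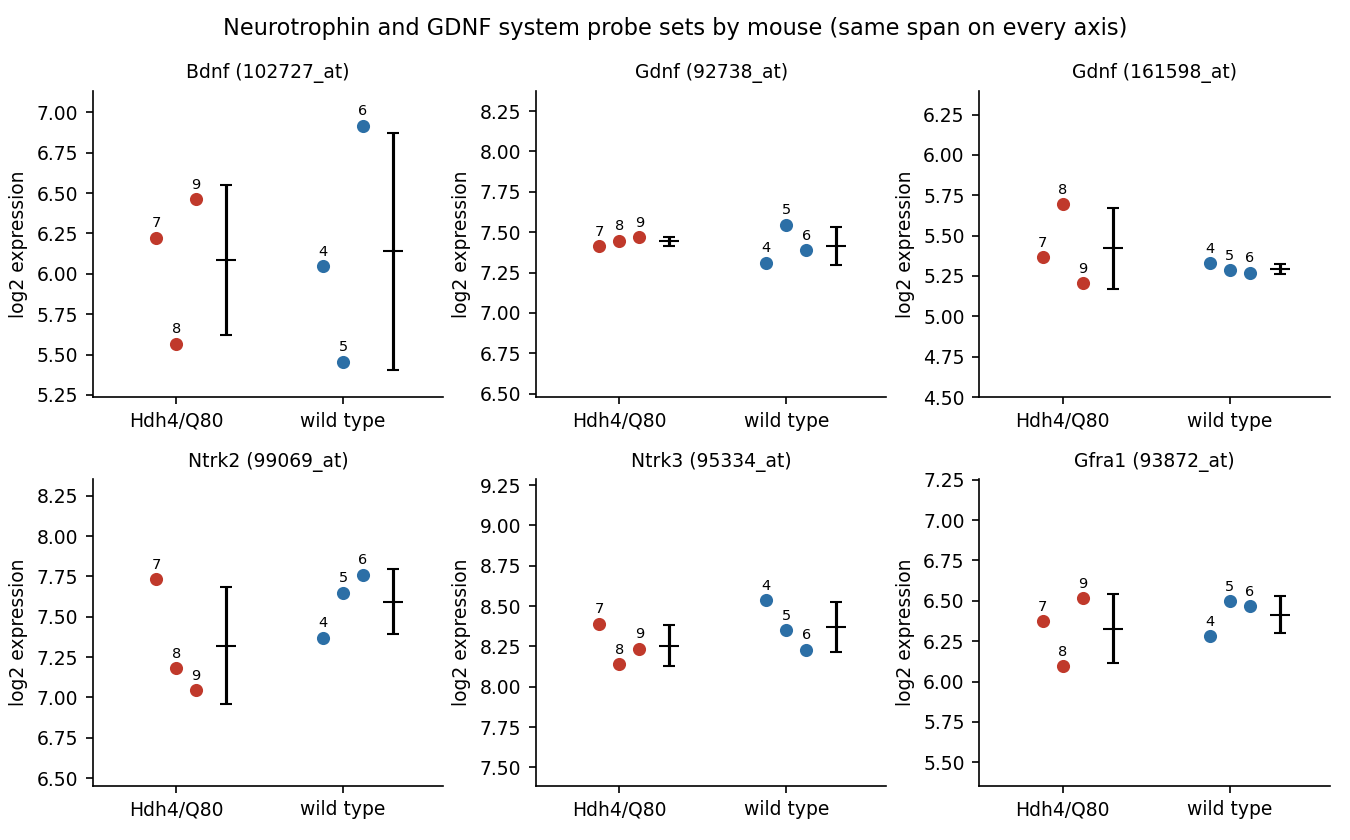
Log2 expression of each probe set in each mouse, with Hdh4/Q80 mice (red) left of wild-type mice (blue), replicate numbers beside the points and mean ± SD (n = 3 mice) as bars; each axis spans the same number of log2 units. The groups overlap in every panel, and Bdnf runs from 5.45 to 6.92 within the wild types alone.

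Bdnf, the ligand of TrkB, read 6.22, 5.57 and 6.46 in Hdh4/Q80 replicates 7, 8 and 9, against 6.05, 5.45 and 6.92 in wild-type replicates 4, 5 and 6. The highest and the lowest mouse were both wild type, 2.76-fold apart, and the mutants lay between them. The group means were 6.08 ± 0.464 in Hdh4/Q80 and 6.14 ± 0.735 in wild-type striatum (SD, n = 3 each), which gives a difference of -0.06 (95% interval -0.79 to 0.67; adjusted p = 0.979 in limma's test). On the array scale that interval runs from a ratio of 0.58 to one of 1.59, so a 1.5-fold change in either direction could not be told from no change at this spread. Without Hdh4/Q80 replicate 8 the difference was 0.20, and without wild-type replicate 6 it was 0.33. Bdnf was a dim probe set, below the median of every array and below the lower quartile of 2 of the 6.

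The within-group SD of Bdnf, pooled over both groups, was 0.615, against a median of 0.099 over all probe sets. A smaller SD was found for 99.9% of all probe sets, and for 99.8% of the 2118 probe sets whose mean lay within 0.5 of that of Bdnf. Ntrk2 also had a wide spread (0.293, wider than 99.0% of all probe sets). The remaining probe sets lay nearer to the bulk: 0.177 for the second Gdnf probe set, 0.173 for Gfra1, 0.141 for Ntrk3 and 0.0871 for the first Gdnf probe set, the last below the median of all probe sets.

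**Figure D2:**
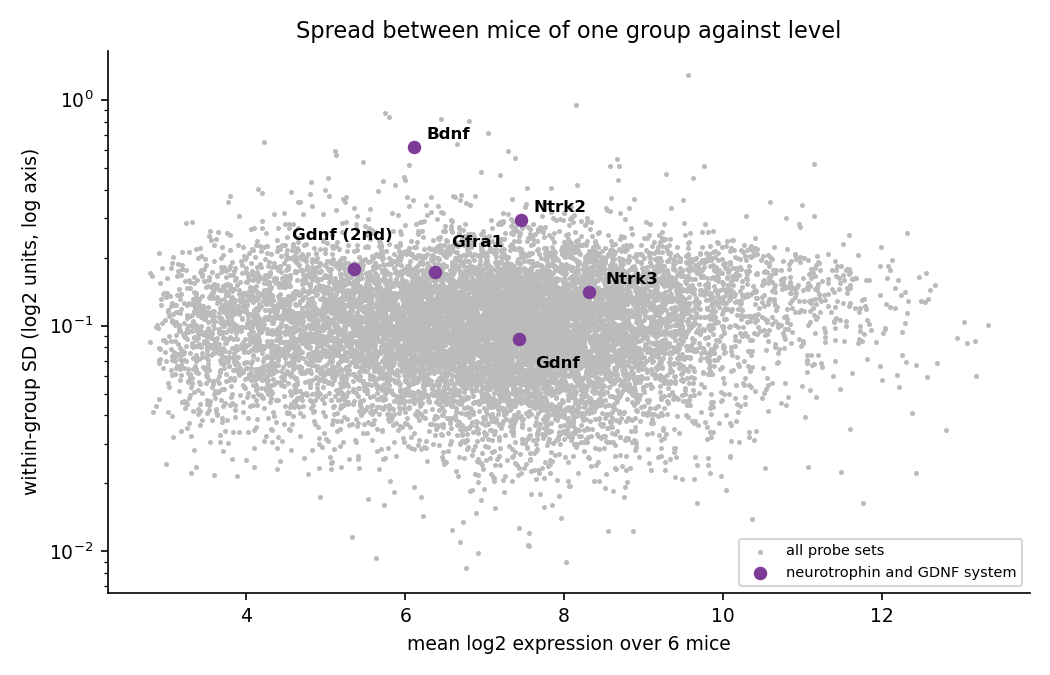
Within-group SD (log2 units on a log axis, pooled over Hdh4/Q80 and wild type) against mean log2 expression over 6 mice, for all 12422 probe sets (grey) and the 6 probe sets of the neurotrophin and GDNF system (purple). Bdnf, at an SD of 0.615, lies at the upper edge of the cloud, and the brighter Gdnf probe set lies within its lower part.

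Bdnf and the measured markers of cortical projection neurons had the same highest mouse, but not all had the same lowest ones. Of 9 listed markers of cortical projection neurons 4 were measured: Tbr1, Neurod2, Fezf2 and Neurod6. Tbr1, a transcription factor of deep-layer cortical neurons, read 6.96, 5.95 and 6.92 in Hdh4/Q80 replicates 7, 8 and 9, against 6.83, 6.10 and 8.04 in wild-type replicates 4, 5 and 6. Wild-type replicate 6 was thus the highest mouse for both Bdnf and Tbr1, and Hdh4/Q80 replicate 8 and wild-type replicate 5 were the lowest pair for both. Neurod2, another cortical transcription factor, read 8.59, 8.48 and 8.60 in the mutants and 8.43, 8.50 and 8.79 in the wild types, a narrower range with the same highest mouse and with wild-type replicate 4 the lowest. Neurod6 read 4.61, 4.53 and 4.55 in the mutants and 4.40, 4.31 and 4.62 in the wild types, so that wild-type replicates 4 and 5 were its lowest. All 4 markers shared the highest mouse of Bdnf, and 2 of the 4 (Tbr1 and Fezf2) shared its lowest pair.

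Over the 6 mice, Bdnf correlated with the mean log2 value of the 4 cortical markers at Pearson's r = 0.973 (exact permutation p = 0.00556) and Spearman's rho = 0.886 (exact permutation p = 0.0333). Of 96 such relations computed (6 probe sets against 16 gene lists), 7 had a permutation p for r under 0.05 and 0 passed after Benjamini-Hochberg adjustment. Besides those described for Bdnf, Ntrk2 and Gfra1, the 7 held the dimmer Gdnf probe set with the astrocyte markers (r = -0.883). They also held Ntrk3 with endothelial or mural markers (0.854) and with meningeal fibroblast markers (-0.807), and Ntrk2 with transcription factors reported to act on Bdnf (-0.831). For Bdnf with the cortical list the adjusted p was 0.267 for r and 0.897 for rho. The smallest permutation p that 6 mice allow is 0.00278 for rho and can be lower for r. Either leaves little room to pass after adjustment over 96 relations. The adjusted values therefore decide little about any single relation. The gene lists were chosen with earlier results of these data known. The permutation p-values here and for the other members thus describe these mice and are not independent tests. Leaving out the 2 mice farthest from the median of the cortical mean gave r = 0.950. The cortical mean was not scaled by gene, so both values of r rest largely on Tbr1. Its within-group SD was 0.803, against 0.142 for Neurod2, 0.121 for Fezf2 and 0.116 for Neurod6. The summed linear signal of the 4 markers ranged from 537 to 645 in Hdh4/Q80 and from 550 to 847 in wild-type mice. Neurod6, at 4.31 to 4.62, was dim throughout. The part that cortical tissue plays in the Bdnf values was not tested, and in bulk tissue a different number of cells and a different amount of RNA per cell cannot be told apart.

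Among 4814 other genes with a mean at or above the array median (7.12), the 3 whose values were most like those of Bdnf over the 6 mice were Cck, Cxxc5 and Stx1a. Cck, the precursor of the neuropeptide cholecystokinin, which cortical neurons make in quantity, read 8.52, 7.07 and 8.52 in Hdh4/Q80 mice, against 8.09, 7.31 and 9.38 in wild types (r = 0.978 with Bdnf). Its highest and its 2 lowest mice were those of Bdnf. Cxxc5, a zinc finger protein, had r = 0.971 and Stx1a, the synaptic fusion protein syntaxin 1A, r = 0.968. With 6 mice such values are not rare: 46 genes, 0.956% of those searched, had r over 0.9 with Bdnf.

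**Figure D3:**
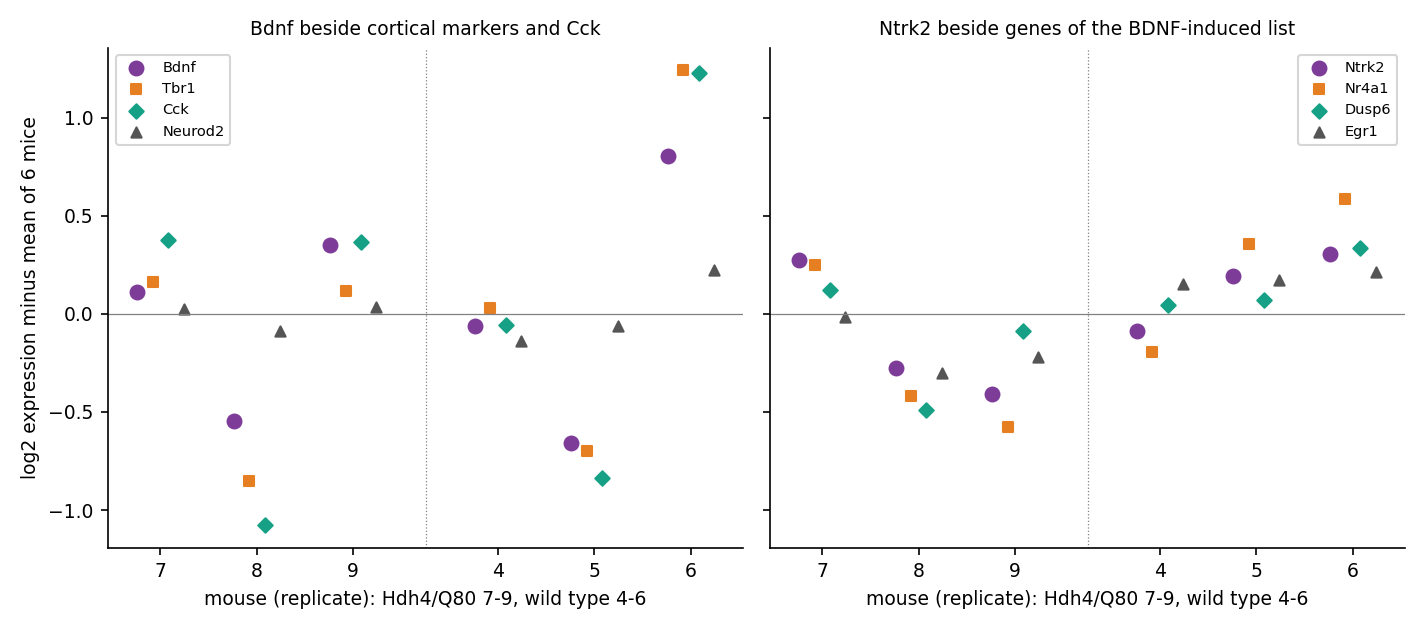
Log2 expression minus each gene's mean over 6 mice, with Hdh4/Q80 replicates 7 to 9 left of wild-type replicates 4 to 6. The left panel shows Bdnf beside Tbr1, Cck and Neurod2, with wild-type replicate 6 highest for all 4 genes. The right panel shows Ntrk2 beside Nr4a1, Dusp6 and Egr1, the 3 BDNF-induced genes of smallest p for the group difference. All 3 read lower in Hdh4/Q80, so this choice favours mutants as the lowest mice. Hdh4/Q80 replicates 8 and 9 are the lowest pair for all 4 genes shown, and for 6 of the 12 measured genes of the list.

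Gdnf, the ligand of GFRα1, had 2 probe sets. On the brighter of them it read 7.41, 7.45 and 7.47 in Hdh4/Q80 mice, against 7.31, 7.55 and 7.39 in wild types. The mutants lay inside the range of the wild types, and the 6 mice spanned only 1.18-fold. The difference was 0.03 (95% interval -0.14 to 0.20; adjusted p = 0.953), and the interval excludes a 1.5-fold change on the array scale. It was 0.027 without Hdh4/Q80 replicate 8 and -0.023 without wild-type replicate 4. How much of the signal comes from Gdnf messenger RNA was not tested, since no detection calls were used. The interval thus limits only the signal of this probe set. The genes most like it were Cad, a pyrimidine synthesis enzyme (r = 0.976 over 6 mice), Gata1, an erythroid transcription factor (0.926), and the homeobox gene Hoxd8 (0.923), all 3 with a range over the mice narrower than that of Gdnf (0.14 to 0.21 log2).

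The second Gdnf probe set read 5.37, 5.69 and 5.20 in Hdh4/Q80 mice, against 5.33, 5.29 and 5.27 in wild types. Hdh4/Q80 replicate 8 stood well above the wild types, replicate 7 lay just above them and replicate 9 was the lowest of all. The difference of 0.13 (interval -0.12 to 0.38; adjusted p = 0.862) became -0.0087 without replicate 8. Without replicate 9 it was 0.24 (95% interval 0.0088 to 0.46; limma's adjusted p = 0.5, 0.0434 before adjustment). This probe set lay below the lower quartile of all 6 arrays. Since the authors' normalization compresses differences at low signal, its interval is a weak limit, and the pair did not show the same order of mice.

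Ntrk2 had the most negative difference of the 6 probe sets. TrkB messenger RNA read 7.73, 7.18 and 7.05 in Hdh4/Q80 replicates 7, 8 and 9, against 7.37, 7.65 and 7.76 in wild-type replicates 4, 5 and 6. Replicates 8 and 9 lay below every wild type, while replicate 7 lay above 2 of them. The means were 7.32 ± 0.362 and 7.59 ± 0.201 (Hdh4/Q80 and wild type, SD, n = 3 each), which gives a difference of -0.27 (95% interval -0.64 to 0.10; limma's adjusted p = 0.857, 0.13 before adjustment). Without Hdh4/Q80 replicate 7 the difference was -0.48 (limma's adjusted p = 0.498, 0.00376 before adjustment), while it was -0.20 without replicate 8 and -0.14 without replicate 9. With arrays weighted by their quality the sign turned (0.029). Full-length and truncated TrkB come from this gene, and the sources used here do not say which form the probe set detects.

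**Figure D4:**
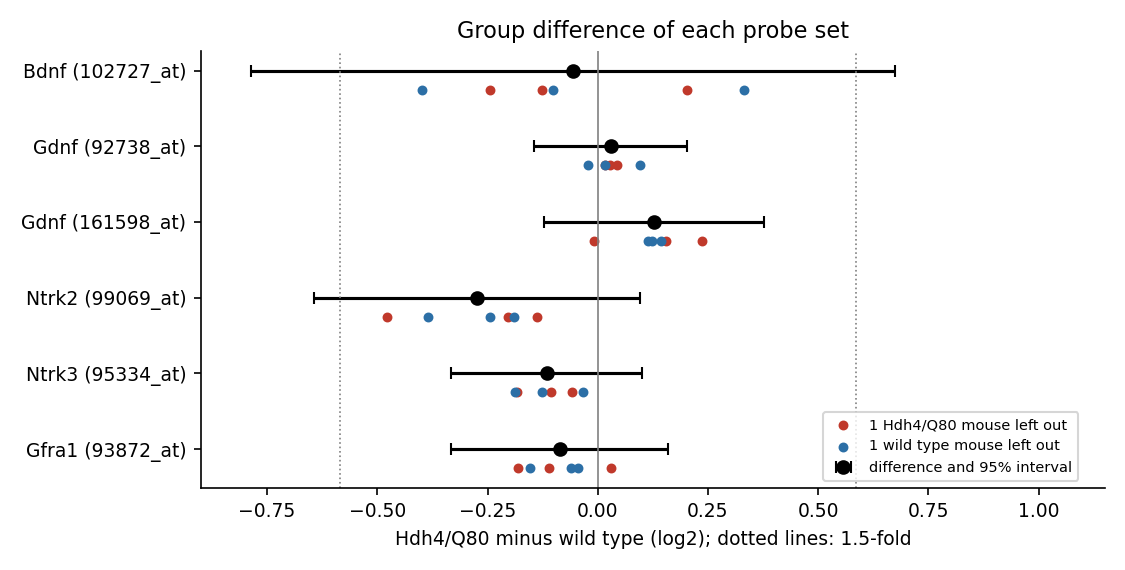
Difference Hdh4/Q80 minus wild type (log2) of each probe set with its 95% interval from limma (black), and the difference with 1 Hdh4/Q80 mouse (red) or 1 wild-type mouse (blue) left out; dotted lines mark 1.5-fold. All 6 intervals include 0, and those of Bdnf and Ntrk2 reach past 1.5-fold.

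Ntrk2 was set beside the 12 measured genes that BDNF induces in cultured neurons, many of which also respond to neuronal activity. Nr4a1, an immediate early nuclear receptor, read 8.40, 7.74 and 7.58 in Hdh4/Q80 replicates 7, 8 and 9, against 7.96, 8.51 and 8.74 in wild-type replicates 4, 5 and 6. The order of the 6 mice differed from that of Ntrk2 only in that Hdh4/Q80 replicate 7 lay above wild-type replicate 5 for Ntrk2 and below it for Nr4a1. Of the 12 genes, 8 had the same highest mouse as Ntrk2, 6 the same 3 highest and 6 the same 2 lowest. The 4 with another highest mouse, named after their values were seen, were Egr2 (Hdh4/Q80 replicate 7), Fosb (Hdh4/Q80 replicate 8), and Homer1 and Nptx2 (wild-type replicate 4). Over the 6 mice, Ntrk2 correlated with the mean log2 value of the list at r = 0.978 (exact permutation p = 0.00556, adjusted p = 0.267 over the 96 relations) and rho = 0.943 (exact permutation p = 0.0167, adjusted p = 0.897), and r was 0.981 without the 2 farthest mice. The mean of the list was not scaled by gene, so the most variable genes weigh most. The within-group SD was 0.870 for Fos and 0.419 for Nr4a1, and 0.29 or lower for the rest. This list, too, was chosen with earlier results of these data known, so the p-values are descriptive. Whether Ntrk2 and these genes varied for the same reason was not tested.

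The genes most like Ntrk2 over the 6 mice were Mknk2, a kinase downstream of MAP kinases that phosphorylates a translation factor (r = 0.989), Mgat3, a glycosyltransferase (0.989), and Kcnab3, a potassium channel subunit (0.982). Mknk2 read 8.77, 8.63 and 8.56 in Hdh4/Q80 mice, against 8.66, 8.77 and 8.79 in wild types. Of 4813 genes searched, 86 (1.79%) had r over 0.9 with Ntrk2.

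Ntrk3, the receptor of neurotrophin-3, read 8.39, 8.14 and 8.24 in Hdh4/Q80 mice, against 8.54, 8.35 and 8.23 in wild types. Hdh4/Q80 replicate 8 was the lowest mouse, but replicates 7 and 9 lay within the range of the wild types. The difference was -0.12 (95% interval -0.33 to 0.10; adjusted p = 0.862), -0.06 without Hdh4/Q80 replicate 8 and -0.03 without wild-type replicate 4. A 1.5-fold change lies outside the interval. The genes most like it were Mrpl45, a mitochondrial ribosomal protein (r = 0.987), Lmo2, a transcriptional cofactor (0.981), and Efl1, a ribosome assembly GTPase (0.977).

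Gfra1, the GDNF coreceptor, read 6.38, 6.09 and 6.52 in Hdh4/Q80 mice, against 6.28, 6.50 and 6.47 in wild types. The mutants held both the highest and the lowest mouse. The difference of -0.09 (95% interval -0.33 to 0.16; adjusted p = 0.903) became 0.031 without Hdh4/Q80 replicate 8, the lowest mouse. Gfra1 lay below the median of all 6 arrays, though below the lower quartile of 0. With the compression at low signal, its interval may understate a difference. Lcat, a cholesterol-esterifying enzyme, was most like it (7.79, 7.45 and 7.95 in Hdh4/Q80 mice, against 7.68, 7.88 and 7.91 in wild types; r = 0.994), followed by the translation factor subunit Eif2b2 and the cochaperone Dnajc2 (r = 0.981 each). Over the 6 mice, Gfra1 and the mean of 6 measured astrocyte markers had r = 0.868 (exact permutation p = 0.0264, adjusted p = 0.6 over the 96 relations), rho = 0.771 (exact permutation p = 0.103, adjusted p = 0.897) and r = 0.973 without the 2 farthest mice. The same astrocyte mean had r = -0.883 with the dimmer Gdnf probe set (exact permutation p = 0.0403, adjusted p = 0.6). The summed linear signal of those markers ranged from 3920 to 4422 in Hdh4/Q80 and from 4398 to 4606 in wild-type mice, and its part in the Gfra1 values was not tested.

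Among the other genes of the pathways, 71 entries in 7 lists were measured and 0 passed the adjusted test, against 0 of 8251 genes (0%), each on its brightest probe set. At an unadjusted p under 0.05 there were 3 (Egr1, Irak1 and Kif5b), against 4.3% of all genes. The list of further neurotrophin ligands, receptors and coreceptors was nearly unmeasured: of 10 entries only Sorl1, a sorting receptor, had a probe set of its own, with a difference of 0.02. Of 7 measured GDNF family genes 5 were below 0 (median -0.03, against -0.0072 for all genes). Without Hdh4/Q80 replicate 9 only 2 of the 7 were below 0 (median 0.018), and without replicate 8 all 7 were (median -0.04). The smallest p-values were those of Nrtn, the ligand neurturin (8.64 ± 0.115 in Hdh4/Q80, 8.76 ± 0.137 in wild type), Ncam1, the alternative GDNF receptor (9.38 ± 0.165 and 9.49 ± 0.0718, in the same order), and Gfra3, the artemin coreceptor (7.18 ± 0.122 and 7.13 ± 0.0907). Ncam1 had differences of 0.07 and -0.0010 on its other probe sets. Ret, the signalling kinase of the GDNF complex, read 6.07, 6.22 and 6.00 in Hdh4/Q80 mice, against 6.01, 6.16 and 5.99 in wild types, and the groups overlapped.

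Of 20 measured adaptors and effectors of Trk and Ret, 15 were below 0 (median -0.05), where 53.3% of all genes were. Crkl, an adaptor, had a mean of 6.67 ± 0.302 in Hdh4/Q80 and 6.38 ± 0.0603 in wild-type mice, a difference of 0.29 ± 0.13 (SE) that was 0.04 on its other probe set. Pik3r1, the regulatory subunit of phosphoinositide 3-kinase, differed by -0.23 ± 0.126 and Gab2, a docking protein, by 0.13 ± 0.0775. In Gab2 the 3 mutants lay above the 3 wild types, and in Map2k1 and Map2k2, 2 MAP kinase kinases, they lay below them. Over the whole array the groups lay apart for 11.7% of all probe sets. The other probe set of Map2k1 had the opposite sign (0.12). The median of this list was -0.01 without Hdh4/Q80 replicate 8.

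Of 6 measured adaptors of the receptor encoded by Ngfr, 3 were below 0 (median -0.03). Irak1, a signalling kinase, differed by 0.27 ± 0.119 (SE; limma's adjusted p = 0.857, 0.0467 before adjustment). Rhoa, a small GTPase, differed by -0.11 ± 0.0738 (-0.18 and 0.01 on its other probe sets) and Maged1 by -0.13 ± 0.0919. Of 14 measured genes of proneurotrophin sorting, cleavage and axonal transport 7 were below 0 (median 0.01). Kif5b, a kinesin heavy chain, differed by 0.23 ± 0.1 (limma's adjusted p = 0.857, 0.0456 before adjustment), Cpe, the sorting receptor and peptidase carboxypeptidase E, by 0.18 ± 0.112 (0.17 on its other probe set) and Kif1a, a vesicle kinesin, by -0.21 ± 0.135. The proneurotrophin protease Furin had a difference of -0.01. Hap1 differed by 0.10 ± 0.0676 and Pcsk7 by 0.06 ± 0.0656 (limma's adjusted p = 0.857 and 0.892). In both, the 3 mutants lay above the 3 wild types, where the groups lay apart for 11.7% of all probe sets.

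Of 11 measured transcription factors reported to act on Bdnf 5 were below 0 (median 0.01). Rest, the repressor that wild-type huntingtin has been reported to hold in the cytoplasm, read 6.21, 6.60 and 6.08 in Hdh4/Q80 mice, against 6.26, 6.07 and 6.10 in wild types, with replicate 8 alone clearly above the others. Its corepressor Sin3a differed by 0.15 ± 0.0822 (SE) and Creb1, which encodes CREB, by -0.09 ± 0.122 (-0.07 and 0.18 on its other probe sets).

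Of 12 measured genes that BDNF induces in cultured neurons, 11 were below 0, against 53.3% of all genes, and 0 passed the test. The median difference was -0.15, against -0.0072 for all genes. The list was chosen with earlier results of these data known, so the count describes these mice and is not an independent test. Egr1, an immediate early transcription factor, read 9.87, 9.59 and 9.67 in Hdh4/Q80 mice, against 10.04, 10.06 and 10.11 in wild types. The groups did not overlap, but the adjusted p was 0.857 (difference -0.36 ± 0.084, SE), and a dimmer probe set of Egr1 had the opposite sign (0.32). Nr4a1 differed by -0.50 ± 0.228 and Dusp6, a MAP kinase phosphatase, by -0.30 ± 0.143 (-0.0033 on its other probe set). Leaving out each mouse in turn, between 9 and 12 of the 12 were below 0, and the median ran from -0.27 without Hdh4/Q80 replicate 7 to -0.10 without wild-type replicate 6.

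Markers of other cell types also moved with the arrays, with 0 passing the adjusted test. Of 7 measured microglial markers 6 were below 0 (median -0.21), against 53.3% of all genes. An unadjusted p under 0.05 in limma's test was found for 4 of the 7, against 4.3% of all genes. For C1qb, 1 of these 4, a dimmer probe set read higher in Hdh4/Q80 (0.24). The summed linear signal of the 7 was 3067, 2471 and 3089 in Hdh4/Q80 replicates 7, 8 and 9, against 3325 to 3512 in wild-type mice. Of 6 measured astrocyte markers 5 were below 0 (median -0.13). S100b (-0.19) and Glul (0.20) had an unadjusted p under 0.05 in limma's test, and a dimmer Glul probe set had the opposite sign (-0.23). So did the interneuron marker Gad1 (0.26) and the endothelial marker Vwf (-0.30, and -0.04 on its other probe set) have an unadjusted p under 0.05. Among 6 measured oligodendrocyte markers 4 were below 0 (median -0.03), with Mobp (-0.31) and Mal (-0.23) at an unadjusted p under 0.05. The sums of the 6 were 10688 to 11395 in Hdh4/Q80 and 11606 to 12321 in wild-type mice. Of 4 measured markers of choroid plexus or ependyma all 4 were above 0 (median 0.57), with sums of 884 to 3188 in Hdh4/Q80 and 852 to 1821 in wild-type mice. Ttr, the transthyretin gene that choroid plexus expresses in quantity, read 8.46, 10.59 and 11.24 in Hdh4/Q80 replicates 7, 8 and 9, against 8.48, 8.32 and 10.26 in wild-type replicates 4, 5 and 6. It was thus highest in the 2 mutants with the lowest Ntrk2, but also high in wild-type replicate 6, the mouse with the highest Ntrk2. Of 5 measured meningeal fibroblast markers 4 were above 0 (median 0.15), with sums of 2849 to 3411 in Hdh4/Q80 and 2698 to 3037 in wild-type mice. The part of these cell types in the values of Ntrk2 and of the BDNF-induced genes was not tested.

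**Figure D5:**
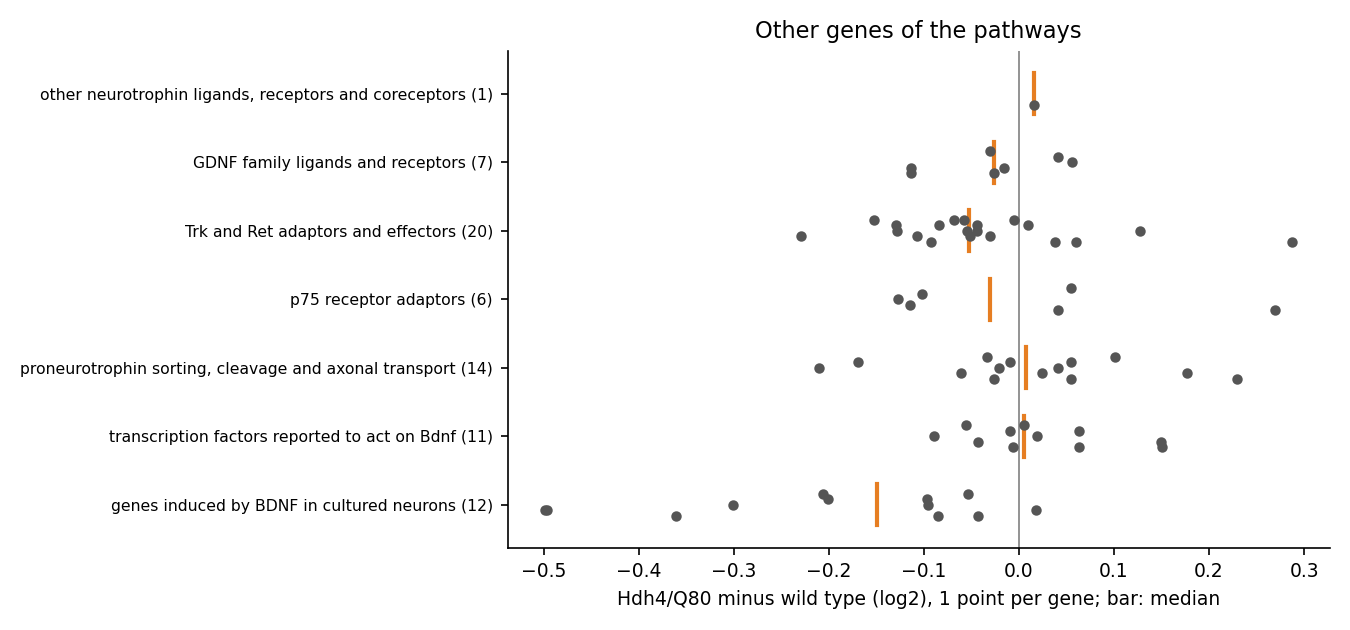
Difference Hdh4/Q80 minus wild type (log2) of every measured gene in 7 lists of the neurotrophin and GDNF pathways, 1 point per gene on its brightest probe set, with the median of each list as a bar and the number measured in parentheses. The BDNF-induced list has its median at -0.15 and the other medians lie between -0.05 and 0.02.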

How the data were processed

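Total RNA of 6 striata was purified with TRIzol and RNeasy columns and put on Affymetrix arrays after in vitro transcription with biotin, per the labels' protocols. The authors deposited log2 values for each probe set, computed by robust multi-array average (RMA) with affy, per the submitters' processing notes. RMA equalises arrays and compresses differences at low signal; the sources used here do not say which arrays were normalized together. Of 12488 probe sets, 66 controls were left out, and 10833 of the rest have 1 gene symbol in the platform annotation, 396 several and 1193 none. Groups and replicate numbers come from the sample titles.

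Hdh4/Q80 was set against wild type with limma 3.58.1 (R 4.3.3; functions lmFit and eBayes; degrees of freedom 4 residual, 5.81 prior), and p-values were adjusted by Benjamini-Hochberg over all 12422 probe sets; the fit was tested on simulated data. The probe set with the highest mean stood for a gene in lists. Likeness is Pearson's r over 6 arrays. Correlations with lists were tested by exact permutation of 720 array orders. The genes named are all probe sets of the set, the 3 of smallest p per list and the 3 most alike per gene. Ret and Furin beyond these, like the markers, were named for their roles. Map2k1, Map2k2, Hap1 and Pcsk7 were named because their groups did not overlap. The genes and lists were chosen with earlier results of these data known. Alternatives were a filter on the dimmest 40%, median centring, quantile and cyclic loess normalization, array weights, trended and robust moderation, averaging the probe sets of a gene, and leaving out each mouse.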

Additional observations from a re-analysis of the deposited data

How the results depend on the processing

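None of the 6 probe sets, and no other probe set of the array, passed an adjusted p of 0.05 in limma under any of the 12 alternatives in which it was tested. The filter on the dimmest 40% left only 3 of the 6 to test, without Bdnf, the second Gdnf probe set and Gfra1. At an unadjusted p under 0.05 the whole array gave 634 probe sets, 338 without the dimmest 40% (fewer were tested), 1812 with array weights and 251 to 1153 with 1 mouse left out. Array weights, which rested the mutant side on Hdh4/Q80 replicate 7 (weight 6.19), turned the sign for the brighter Gdnf probe set (-0.00052), Ntrk2 (0.029) and Ntrk3 (0.042). With 1 mouse left out the difference ran from -0.40 to 0.33 for Bdnf, -0.023 to 0.095 and -0.0087 to 0.24 for the Gdnf probe sets, -0.48 to -0.14 for Ntrk2, -0.19 to -0.03 for Ntrk3 and -0.18 to 0.031 for Gfra1. The causes were not tested. The mean of both Gdnf probe sets gave 0.08, against 0.03 on the brighter one. The count of BDNF-induced genes below 0 (9 to 12 of 12 with 1 mouse left out) was a check chosen after seeing the data. No paired analysis was made, because the labels used here do not say which mutant belongs with which wild type.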
